A study of Homo sapiens with 12 samples.

Results

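Complement made by macrophages was described from 9 genes of the count table: C1QA, C1QB, C1QC, C1R, C1S, C2, C3, CFB and SERPING1. They were chosen by name, as components and inhibitors of the classical and alternative pathways, from a table of 58907 genes, and each name matched 1 row. The RNA came from the PPRE-eGEP-THP-1 line, derived from the human monocytic leukaemia line THP-1 and labelled as monocyte, in 12 libraries. All 4 groups were first exposed for 48 h to 25 ng/mL of the phorbol ester PMA, which turns THP-1 cells into adherent macrophages, and rested for 24 h. Polarization lasted 24 h, towards M1 by 20 ng/mL interferon gamma plus 100 ng/mL lipopolysaccharide, and towards M2 by interleukins 4 and 13 at 20 ng/mL each. The groups were M1 MCHP and M1 DMSO, then M2 MCHP and M2 DMSO, with 3 libraries each. MCHP is monocyclohexyl phthalate, a monoester of the plasticizer dicyclohexyl phthalate, given at 100 µM during polarization, and DMSO is its solvent. The series text calls the 3 libraries biological replicates of 1 cell line and does not say that they were separate cultures, so p-values measure the spread between these libraries only.

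Complement is a cascade of blood proteases and binding proteins that marks microbes, dead cells and immune complexes for uptake. In the classical pathway, C1q, built from the products of C1QA, C1QB and C1QC, binds its target and switches on the proteases C1r and C1s, which cut C4 and C2 into the C3 convertase. The alternative pathway builds its own convertase from C3 and factor B (CFB). Both converge on C3, the opsonin that phagocytes recognise, and SERPING1, the C1 inhibitor, blocks C1r and C1s. The liver makes most of the complement in plasma, while macrophages make C1q, C3, factor B, C2 and other components locally. Interferon gamma is a known inducer of several of these genes in human monocytes.

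The genes lie in clusters on hg38, with positions as the table gives them. C1QA (chr1:22636506-22639608), C1QC (chr1:22643630-22648110) and C1QB (chr1:22652762-22661538) stand side by side on the plus strand, 4021 and 4651 bases apart. C1S (chr12:6988259-7071032, plus strand) and C1R (chr12:7080199-7092607, minus strand) are 9166 bases apart. C2 (chr6:31897785-31945672) and CFB (chr6:31945650-31952084), both on the plus strand, overlap by 23 bases. C3 (chr19:6677704-6730562, minus strand) and SERPING1 (chr11:57597387-57614853, plus strand) lie on other chromosomes.

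Promoter sequences from RefSeq, build GRCh38.p14, were matched for 5 of the 9 genes, C1QA, C1QB, C1R, C2 and CFB, in 8 windows of 300 bases (250 before and 50 after a start). They are shown for the 3 genes with a match, because M1 polarization uses interferon gamma, whose signal reaches genes through GAS elements and, by way of IRF factors, ISRE elements. The letters searched on both strands were TTC and GAA with 3 bases between them for GAS, GAAA and GAAA with 2 bases between them for the ISRE core, and TTC and GAA with 4 bases between them for the STAT6 site used by interleukin 4. They were also GGG and TTTCC with 2 bases between them for NF-kB, GAGGAAG for PU.1, and AGGTCA repeated after 1 base for a PPAR element. Capitals mark the matches. In CFB (chr6:31945845-31946144, plus strand) the minus-strand ISRE core is at -140 to -131 and the GAS at -92 to -84 from the start. In C1R (chr12:7091844-7092143, minus strand) a GAS is at -86 to -78, and in C1QA (chr1:22636213-22636512, plus strand) at -66 to -58.
CFB: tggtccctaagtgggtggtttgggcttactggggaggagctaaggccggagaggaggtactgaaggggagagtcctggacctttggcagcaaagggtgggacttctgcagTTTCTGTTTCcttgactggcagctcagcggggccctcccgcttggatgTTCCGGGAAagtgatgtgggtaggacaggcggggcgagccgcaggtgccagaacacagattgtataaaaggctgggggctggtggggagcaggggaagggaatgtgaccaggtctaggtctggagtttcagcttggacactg
C1R: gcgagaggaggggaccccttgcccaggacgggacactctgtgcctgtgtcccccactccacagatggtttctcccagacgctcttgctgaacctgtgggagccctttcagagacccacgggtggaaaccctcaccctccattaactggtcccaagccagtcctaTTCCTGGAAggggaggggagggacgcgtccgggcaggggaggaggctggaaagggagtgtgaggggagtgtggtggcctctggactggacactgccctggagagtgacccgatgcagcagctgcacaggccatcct
C1QA: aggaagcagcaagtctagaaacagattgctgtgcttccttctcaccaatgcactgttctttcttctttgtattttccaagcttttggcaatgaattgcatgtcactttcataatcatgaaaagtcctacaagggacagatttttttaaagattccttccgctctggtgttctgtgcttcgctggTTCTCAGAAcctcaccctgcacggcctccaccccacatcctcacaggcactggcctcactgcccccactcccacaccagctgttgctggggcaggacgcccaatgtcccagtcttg
The second C1QA window holds the same GAS, and the other C1R window, both C2 windows and the C1QB window hold none of the 6 motifs. No window of these genes matched the STAT6, NF-kB, PU.1 or PPAR letters. Among 35116 RefSeq promoter windows of this length, 7.66% hold the GAS letters and 3.57% the ISRE core, while 6.44% hold the STAT6 letters, 1.91% NF-kB, 13.6% PU.1 and 0.0228% the PPAR element. A match describes letters in a window and not a bound site.

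The libraries held 14352202 to 16871233 counts. Levels are given as CPM (counts relative to library size, scaled with TMM factors) within a gene, and as TPM (counts per length, scaled to the same total in each library) between genes. Of 9 macrophage markers, 8 reached a mean of 1 CPM in every group, with CD68 below it. Their levels still differed: in DMSO, 6 of the 8 tested were higher in M1 than in M2 and 1, ITGAM, was lower (21.6% and 20.9% of all genes). The part of these shifts in the M1 differences was not tested. Of the exonic bases of CD68, 81.7% are shared with AC016876.2 on the same strand, so its level can depend on how such reads were assigned. Of 9 M1 markers, 8 reached a mean of 1 CPM in both M1 groups against 1 of 9 in both M2 groups. Of 10 M2 markers, 6 reached it in each M1 group, 6 in M2 MCHP and 7 in M2 DMSO, so by this count they did not separate the states. In DMSO, 5 of their 7 tested members were lower and 1, CLEC10A, was higher in M1 than in M2 (log2 3.96). M2 markers summed to 2404 CPM in M1 MCHP and 2219 CPM in M1 DMSO, against 11407 CPM in M2 MCHP and 10345 CPM in M2 DMSO. Hepatocyte (0 of 3), T cell (0 of 2), B cell (0 of 2) and epithelial (0 of 1) markers stayed under 1 CPM in every group, and the hepatocyte genes, whose tissue makes most plasma complement, summed to 0.139 to 0.373 CPM. Of 3 fibroblast markers 1, COL1A1, passed 1 CPM, and the list summed to 130 CPM in M1 MCHP and 116 CPM in M1 DMSO, against 27.6 CPM in both M2 groups. Of 2 endothelial markers PECAM1, which monocytes also make, passed it, and the list summed to 805 to 1116 CPM. The part of COL1A1-expressing cells in the M1 differences was not tested. In 1 library, M2 DMSO replicate 1, genes deviated from the average of the remaining M2 DMSO libraries with an SD of 0.445 log2 units, against 0.315 to 0.352 for the other 11 libraries within their groups, and the median of 30 type I interferon response genes deviated by 0.49, against -0.33 to 0.20.

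C3 was by far the most abundant of the 9 genes. It averaged 1853 TPM in M1 MCHP, 1921 TPM in M1 DMSO, 967 TPM in M2 MCHP and 892 TPM in M2 DMSO, which placed it between rank 50 and rank 59 of all genes in the M1 libraries and between rank 95 and rank 130 in the M2 libraries. In both M1 groups the order of mean TPM was C3, SERPING1, C1S, C1R, CFB, C2 and then the C1q chains. In M2 MCHP it was C3, C1R, SERPING1, C1S and CFB, and in M2 DMSO C3, C1R, C1S, SERPING1 and CFB, with the remaining genes lower.

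Neighbours in this order were not always separate. SERPING1 (276 TPM in M1 MCHP, 278 TPM in M1 DMSO), C1S (66.1 and 62.9 TPM in the same order) and C1R (8.29 and 9.13 TPM) did not overlap between M1 libraries, nor did CFB (1.97 to 2.64 TPM) and C2 (0.769 to 1.92 TPM). The CFB and C2 ranges nearly touch. Of their exonic bases, 45.5% and 38.7% are shared with another gene, so this order can depend on how such reads were assigned. C1QB libraries in M1 ranged from 0.317 to 1.85 TPM and overlapped those of C2. In M2 MCHP the libraries of SERPING1 (0.526 to 1.26 TPM) and C1S (0.587 to 0.914 TPM) overlapped, whereas in M2 DMSO SERPING1 (0.729 to 0.962 TPM) stayed just under C1S (at least 0.965 TPM). CFB and C2 libraries overlapped in both M2 groups.

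**Figure D1:**
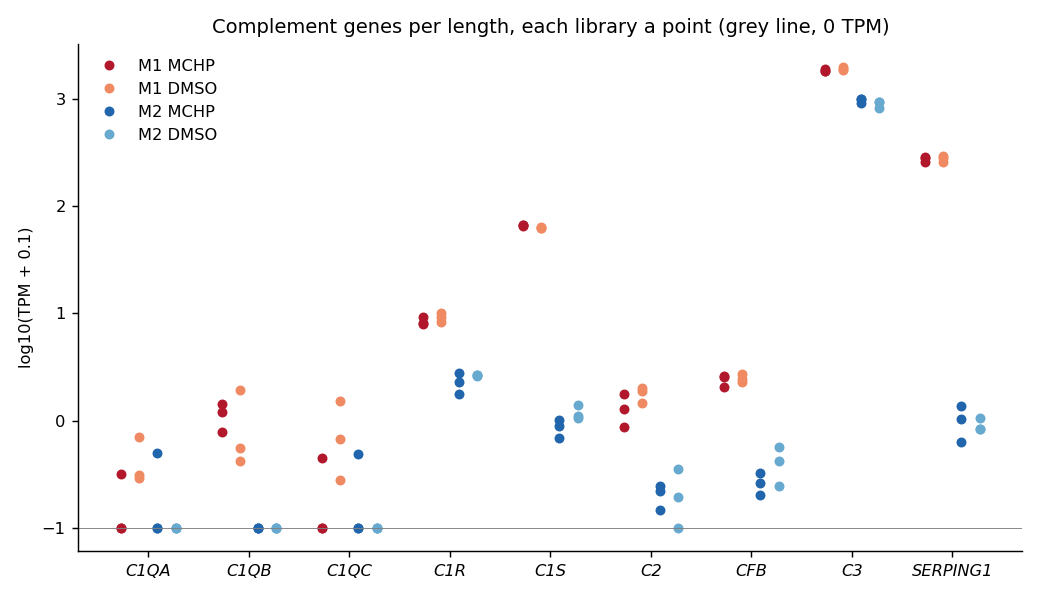
Level per length of the 9 genes, with each library as a point, on log10(TPM + 0.1), where the grey line is 0 TPM. C3 stays on top in all 4 groups, while SERPING1 and C1S are far higher in the M1 libraries (red and orange) than in the M2 libraries (blue).

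Polarization separated the complement genes far more than MCHP did. In DMSO, all 6 genes that passed the count filter were higher in M1 than in M2 (42.5% of 15252 genes passed the test in either direction, and 21.6% were higher), at a Benjamini-Hochberg adjusted p under 0.05 in edgeR's quasi-likelihood test. The same 6 genes were higher in M1 than in M2 under MCHP, where 44.6% of genes passed in either direction and 21.9% were higher. C1R, C1S and C3 met the filter in all 12 libraries and SERPING1 in 11. C2 and CFB met it only in the 6 M1 libraries, so their count over the filter rested on the group in which they were high. The 3 C1q genes did not pass. In bulk RNA, fewer expressing cells and less RNA per cell cannot be told apart.

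**Figure D2:**
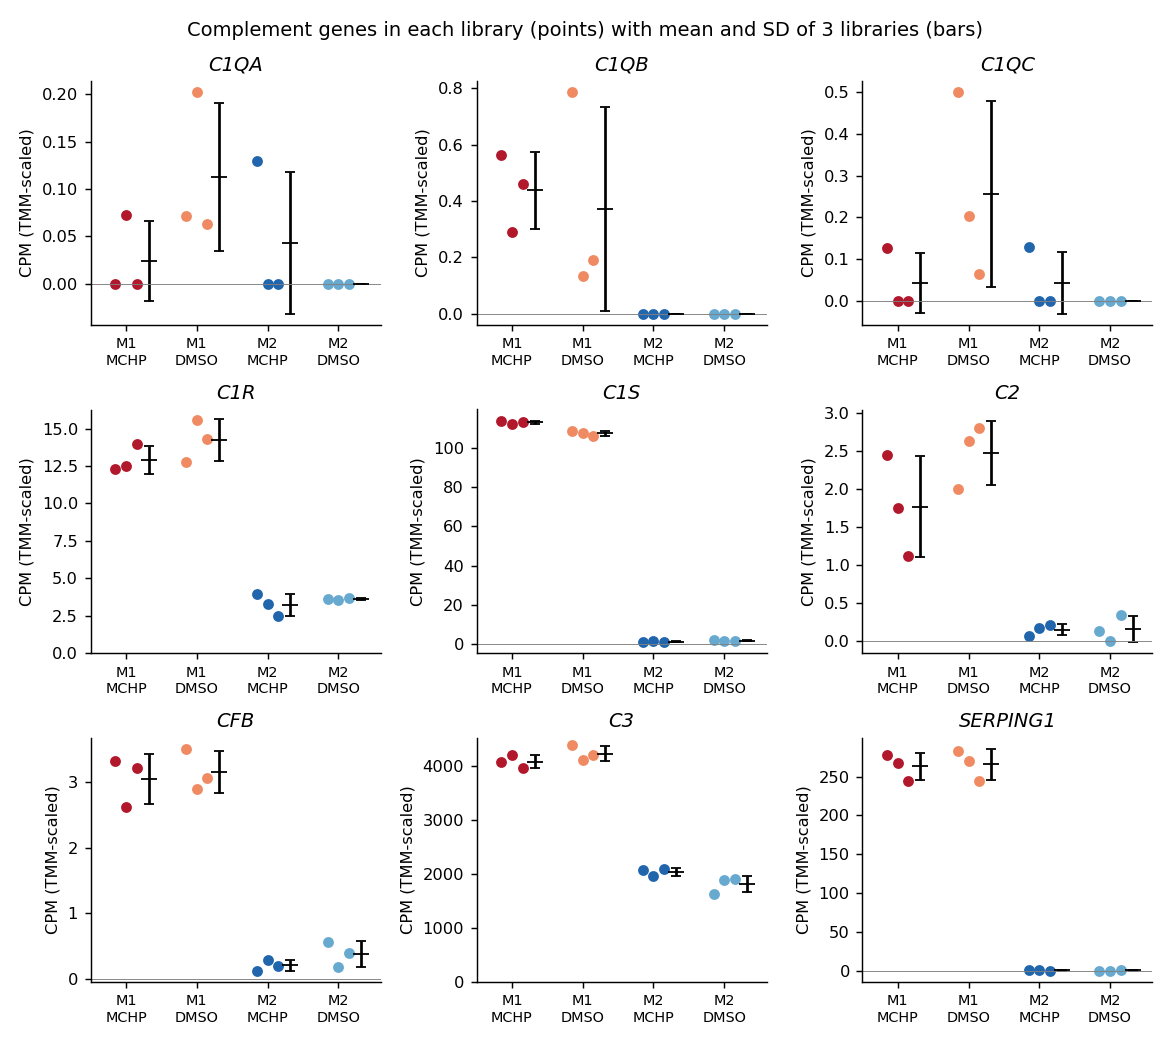
TMM-scaled CPM of each gene in each library (points) with the mean and SD of 3 libraries (bars), 1 panel per gene with its own axis. The M1 libraries lie above the M2 libraries for C1R, C1S, C2, CFB, C3 and SERPING1, and within a polarization state the MCHP and DMSO points overlap or lie close together.

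The recognition subunits were almost silent. C1QB, the B chain of C1q, had 9, 4 and 7 counts in M1 MCHP and 11, 2 and 3 counts in M1 DMSO, against 0 counts in all 6 M2 libraries. With a floor of 3 counts over the M2 group, its summed level was at least 7.01-fold higher in M1 than in M2 under MCHP and at least 6.04-fold higher in DMSO. C1QC, the C chain, had 2, 0 and 0 counts in M1 MCHP, 7, 3 and 1 in M1 DMSO, 2, 0 and 0 in M2 MCHP and 0 in each M2 DMSO library.

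C1QA, the A chain, was lower still, with 0, 1 and 0 counts in M1 MCHP, 1, 3 and 1 in M1 DMSO, 2, 0 and 0 in M2 MCHP and 0 in each M2 DMSO library. C1q is a product that tissue macrophages are known for, and here none of its chains passed the filter. The summed C1QC level in M1 MCHP was 0.180 of that in M1 DMSO (2 against 11 counts, exact 95% interval 0.0194 to 0.825, which covers counting error only), and 7 of the 11 counts came from 1 DMSO library. For C1QB the ratio in M1 was 1.24 (20 against 16 counts, 0.609 to 2.55), and for C1QA 0.198 (1 against 5 counts, 0.00419 to 1.77). A test without the count filter called C1QB higher in M1 than in M2 in DMSO (adjusted p = 0.0011) and under MCHP (adjusted p = 0.00050), and C1QC higher in DMSO (adjusted p = 0.030), and none of the 3 with MCHP.

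The proteases of C1 were both higher in M1, but unequally. C1R, the protease that C1q activates first, was at 12.3, 12.5 and 14.0 CPM in M1 MCHP and 12.8, 15.6 and 14.3 CPM in M1 DMSO, against 3.94, 3.31 and 2.47 CPM in M2 MCHP and 3.59, 3.59 and 3.71 CPM in M2 DMSO. C1S, the protease that cuts C4 and C2, was at 114.0, 112.4 and 113.1 CPM in M1 MCHP and 108.9, 107.6 and 106.3 CPM in M1 DMSO, against 1.29, 1.51 and 0.959 CPM in M2 MCHP and 2.02, 1.59 and 1.54 CPM in M2 DMSO. Every M1 library lay above every M2 library for both genes, and the C1S libraries of 1 group differed little.

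The log2 fold change of C1R between M1 and M2 was 1.97 ± 0.15 (SE) in DMSO, 3.92-fold with a 95% interval of 3.15 to 4.86 (adjusted p = 2.8e-09). Under MCHP it was 1.99 ± 0.15 (3.97-fold, adjusted p = 3.7e-09). For C1S the difference was 5.97 ± 0.10 in DMSO (62.7-fold, 53.9 to 73.0, adjusted p = 2.3e-18) and 6.47 ± 0.11 under MCHP (88.8-fold, 75.6 to 104, adjusted p = 1.5e-18). The ratio of C1S to C1R per length was 7.98 in M1 MCHP and 6.89 in M1 DMSO, against 0.352 in M2 MCHP and 0.431 in M2 DMSO. The library ranges of this ratio, 6.29 to 8.46 in M1 and 0.299 to 0.511 in M2, lay far apart, so C1S exceeded C1R in M1 and was below it in M2. Of the exonic bases, 11.4% of C1R are shared with C1RL and 3.54% of C1S with EMG1, and how shared reads were assigned is not given in the sources used here.

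SERPING1, the inhibitor of both proteases, had the largest difference of the 6. It was at 277.7, 267.8 and 244.2 CPM in M1 MCHP and 282.8, 269.8 and 243.9 CPM in M1 DMSO, against 0.839, 1.16 and 0.479 CPM in M2 MCHP and 0.630, 0.647 and 0.855 CPM in M2 DMSO. The M2 values correspond to 7 to 20 counts a library, and the M1 values to 3687 to 4436 counts. The log2 fold change between M1 and M2 was 8.52 ± 0.14 in DMSO (368-fold, 299.5 to 451.5, adjusted p = 1.1e-18) and 8.27 ± 0.14 under MCHP (309-fold, 252 to 378, adjusted p = 1.3e-18). Per length, SERPING1 stood at 4.17 times C1S in M1 MCHP and 4.43 times in M1 DMSO, against 1.18 times in M2 MCHP and 0.741 times in M2 DMSO.

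C2 and CFB, the neighbouring and homologous genes for the catalytic subunits of the classical and alternative C3 convertases, were low in M1 and near the detection limit in M2. C2 was at 2.44, 1.74 and 1.11 CPM in M1 MCHP and 2.001, 2.63 and 2.80 CPM in M1 DMSO, against 0.0646, 0.174 and 0.205 CPM in M2 MCHP and 0.126, 0 and 0.342 CPM in M2 DMSO. CFB was at 3.32, 2.61 and 3.21 CPM in M1 MCHP and 3.50, 2.90 and 3.05 CPM in M1 DMSO, against 0.129, 0.290 and 0.205 CPM in M2 MCHP and 0.567, 0.177 and 0.399 CPM in M2 DMSO. All M1 libraries were above all M2 libraries for both genes, and M2 libraries held 0 to 6 counts of C2 and 2 to 9 of CFB.

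The log2 fold change of C2 between M1 and M2 was 3.90 ± 0.53 in DMSO (14.97-fold, 6.93 to 32.3, adjusted p = 6.8e-06) and 3.51 ± 0.57 under MCHP (11.4-fold, adjusted p = 5.0e-05). In DMSO it moved to 5.17 without M2 DMSO replicate 3 and to 3.34 without M2 DMSO replicate 2. For CFB it was 3.03 ± 0.33 in DMSO (8.19-fold, 5.07 to 13.2, adjusted p = 4.0e-07) and 3.81 ± 0.37 under MCHP (14.0-fold, adjusted p = 9.6e-08). The annotated gene AL645922.1 (chr6:31927698-31952048, plus strand) spans both genes, and all of its 4069 exonic bases lie within exons of C2 (1820) or CFB (2249). With it and their other neighbours, 45.5% of CFB exonic bases and 38.7% of C2 exonic bases are shared with another gene on either strand. AL645922.1 itself had 1 count over the 12 libraries, against 206 for C2 and 307 for CFB. Reads on the shared exons, where there were any, were therefore not also counted for AL645922.1. Whether they were dropped or given to C2 and CFB is not stated in the sources used here. If they were dropped, the levels of C2 and CFB are understated.

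C3, on which all pathways converge, changed least of the 6 between the polarization states. It was at 4085, 4210 and 3964 CPM in M1 MCHP and 4388, 4121 and 4201 CPM in M1 DMSO, against 2078, 1955 and 2085 CPM in M2 MCHP and 1638, 1886 and 1912 CPM in M2 DMSO. The 2 states did not overlap, and M2 DMSO replicate 1, the library that stands apart, was the lowest of all. The log2 fold change between M1 and M2 was 1.23 ± 0.06 in DMSO (2.34-fold, 2.15 to 2.55, adjusted p = 4.1e-12) and 1.00 ± 0.06 under MCHP (2.004-fold, 1.84 to 2.18, adjusted p = 6.7e-11).

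**Figure D3:**
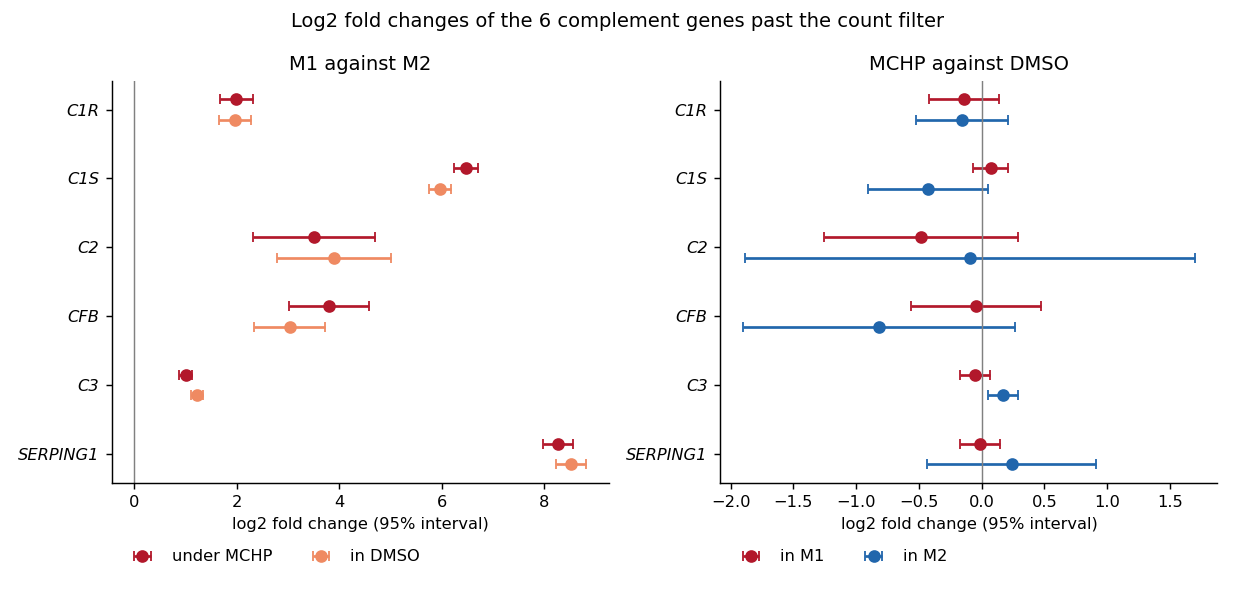
Log2 fold changes with 95% intervals of the 6 genes that passed the filter, for M1 against M2 (left, under MCHP and in DMSO) and for MCHP against DMSO (right, in M1 and in M2). The intervals on the left lie above 0 for all 6 genes, and on the right all of them include 0 except that of C3 in M2, whose adjusted p was 0.10.

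With MCHP in M1, no complement gene passed the test (0 of 6, where 0.0852% of all genes passed, 0.0721% higher and 0.0131% lower). The count at an unadjusted p under 0.05 was 0, and DESeq2 and limma-voom also called 0. The log2 fold change of C3 was -0.05 ± 0.06 (0.965-fold, 0.886 to 1.05), that of SERPING1 was -0.01 ± 0.08 (0.992-fold, 0.886 to 1.11), and that of C1S 0.07 ± 0.07. C1R was at -0.14 ± 0.13, CFB at -0.04 ± 0.25 and C2 at -0.48 ± 0.37, whose interval of 0.419 to 1.22-fold allowed more than those of C3 and SERPING1. Every adjusted p was 0.998. The MCHP and DMSO libraries of M1 overlapped in each of these genes except C1S, where the lowest MCHP library (112.4 CPM) was above the highest DMSO library (108.9 CPM). The share of all genes whose libraries separate in this way was not counted, so no response is read from it.

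With MCHP in M2, 0 of 6 genes passed, where 5.11% of all genes did, 2.92% higher and 2.18% lower. C3 came closest, with 2078, 1955 and 2085 CPM with MCHP against 1638, 1886 and 1912 CPM in DMSO. Every MCHP library lay above every DMSO library, and the share of all genes that separate in this way was not counted. The log2 fold change of C3 was 0.17 ± 0.06 (1.13-fold, 1.03 to 1.22), with an unadjusted p of 0.0091 and an adjusted p of 0.10. It was the 1 gene with an unadjusted p under 0.05, DESeq2 and limma-voom called 0 of 6, and without a count filter C3 passed at an adjusted p of 0.048. Without M2 DMSO replicate 1 the change was 0.10 (adjusted p = 0.096).

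C1S went the other way in value, at 0.743-fold (0.534 to 1.03, log2 -0.43 ± 0.23, adjusted p = 0.33), with 20, 26 and 14 counts with MCHP against 32, 27 and 27 in DMSO. These counts did not overlap, and here too the share of all genes that separate in this way was not counted. CFB was at -0.82 ± 0.52 on the log2 scale (0.568-fold, 0.268 to 1.21, adjusted p = 0.42), C1R at -0.16 ± 0.17, SERPING1 at 0.24 ± 0.32 and C2 at -0.09 ± 0.85. The intervals of CFB and C2 in M2 rest on under 10 counts a library, and the interval of C2 spans 0.270 to 3.25-fold. Changes inside these intervals remain possible at this depth. The intervals are not limits of detection, because a call needs an adjusted p under 0.05 over all genes.

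The difference between the MCHP responses (M1 minus M2) was tested directly, and 0 of 6 genes passed, where 0.164% of all genes did, 0.059% higher and 0.105% lower. It was -0.22 ± 0.08 for C3 (unadjusted p = 0.015, adjusted p = 0.41) and 0.50 ± 0.22 for C1S (unadjusted p = 0.038, adjusted p = 0.53), the 2 genes with an unadjusted p under 0.05. DESeq2 and limma-voom called 0. The other differences were 0.77 ± 0.57 for CFB, -0.39 ± 0.98 for C2, -0.25 ± 0.33 for SERPING1 and 0.02 ± 0.22 for C1R.

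Genes that followed the 4 best-counted members most closely were found by the root mean square difference of centred log2 CPM over the 12 libraries, among 9608 protein-coding genes with a mean of at least 5 CPM. For C1R they were PSMB8, a subunit of the immunoproteasome (0.121), SLC25A37, a mitochondrial iron importer (0.127), and MICA, a ligand of the receptor NKG2D (0.138). For C1S they were the chemokine CCL8 (0.254) and the interferon-induced IFI44 (0.274) and TRIM22 (0.299). SERPING1 was nearest to the chemokine CXCL10 (0.400), APOL4 (0.658) and the chemokine CXCL9 (0.716). C3 was nearest to PRDM1, a transcriptional repressor (0.0580), the mitochondrial phosphatase PDP1 (0.0650) and FMNL2, an actin regulator (0.0715). PRDM1 averaged 195 CPM in M1 MCHP and 193 CPM in M1 DMSO, against 95.1 CPM in M2 MCHP and 82.4 CPM in M2 DMSO, and CXCL10 276 CPM in M1 MCHP and 348 CPM in M1 DMSO, against 0.794 CPM in M2 MCHP and 0.478 CPM in M2 DMSO. These distances describe likeness over the same libraries, whose main difference is polarization.

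Around these members stand 46 other complement genes, of which 22 passed the filter and 17 had no count in any library. In DMSO, 12 of the 22 were higher in M1 than in M2 and 5 were lower (21.6% and 20.9% of all genes), with a median log2 fold change of 0.23 against -0.0043 over all genes. Under MCHP 12 were higher and 6 lower (21.9% and 22.7% of all genes), with a median of 0.42. Of 4 tested initiation genes 3 were higher in M1 in both comparisons, and of 8 receptor genes 5 were higher in both, while 2 were lower in DMSO and 3 under MCHP. Of 2 alternative pathway genes CFP, properdin, was lower in both, and CFD, factor D, was higher under MCHP (log2 0.46, adjusted p = 0.015) and not called in DMSO (0.25, adjusted p = 0.17). The call of CFD was lost without M1 MCHP replicate 1 or M2 MCHP replicate 3 (adjusted p of up to 0.10). In DMSO the call of VTN (lower) was lost under 10 of 20 alternatives, that of ITGB2 (higher) under 3, and those of CLU (higher) and ITGAX (lower) under 1 each. Under MCHP that of ITGAX was lost under 5 of 20, that of ITGB2 under 1 of 20 and that of VTN under 1 of 19.

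C4A and C4B, the C4 that C1s cuts, had summed counts of 384 and 222 in M1 MCHP and 301 and 242 in M1 DMSO, against 4 and 1 in M2 MCHP and 10 and 7 in M2 DMSO. In DMSO their log2 fold changes were 5.03 ± 0.32 (adjusted p = 2.7e-10) and 5.21 ± 0.40 (adjusted p = 3.5e-09). The 2 are near-identical copies, so the split between them is uncertain, and like C2 they owe their place among tested genes to M1.

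C3AR1, the receptor of the C3a fragment, was at 139 ± 2.49 CPM in M1 MCHP and 146 ± 4.25 CPM in M1 DMSO, against 23.4 ± 1.48 CPM in M2 MCHP and 31.9 ± 2.85 CPM in M2 DMSO (SD, n = 3 each). It was higher in M1 by 2.19 ± 0.07 on the log2 scale in DMSO (adjusted p = 1.3e-14). The C5a receptors C5AR1 (0.89) and C5AR2 (0.62), VSIG4, a macrophage receptor of C3b (0.65), and CD46, a membrane cofactor that inactivates C3b (0.58), were also higher in M1 in DMSO. ITGAM, a subunit of complement receptor 3, was lower in M1 by log2 -1.16, CFP by -0.65, and CD59, which blocks the membrane attack complex, by -0.23. C5, the start of the terminal pathway, was higher in M1 in DMSO (0.81, adjusted p = 0.0025) and not called under MCHP (0.19, adjusted p = 0.46). Of its 6 terminal partners, C8G was the one tested, and it was not called in either comparison.

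**Figure D4:**
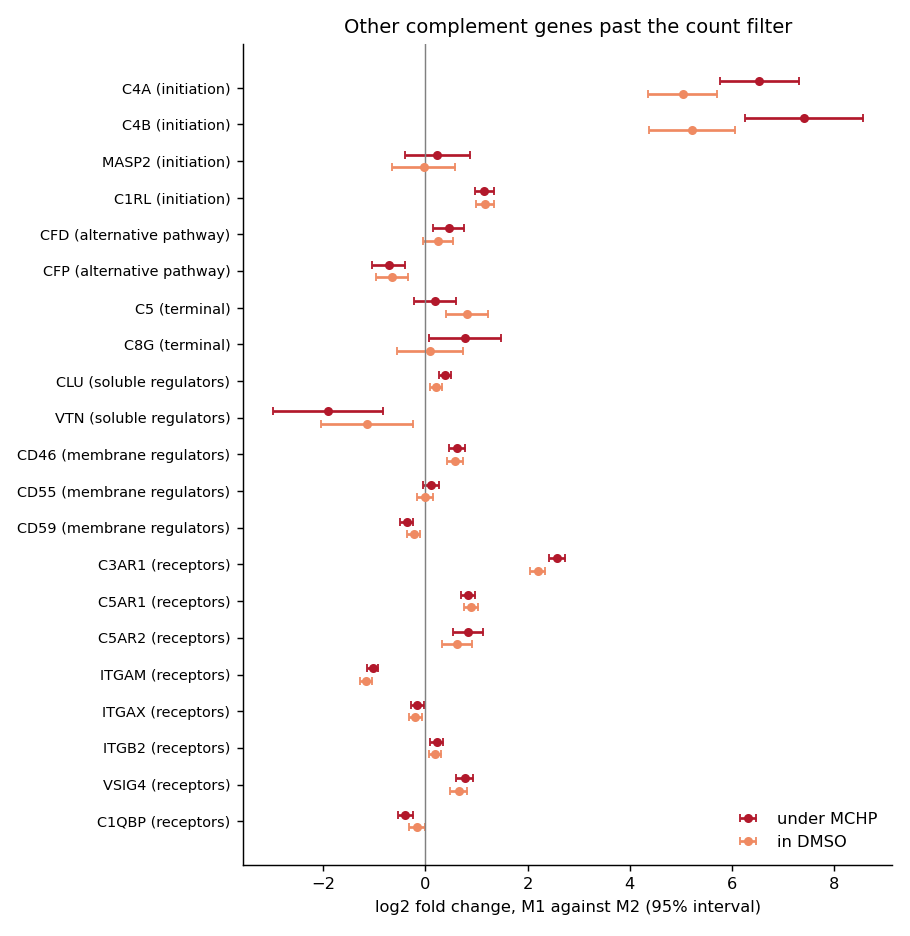
Log2 fold change between M1 and M2 with 95% intervals for other complement genes that passed the count filter (21 of 22 drawn), under MCHP (upper mark of each pair) and in DMSO (lower mark), grouped by role. C4A and C4B lie farthest to the right, and ITGAM and VTN to the left. The DMSO call of VTN was lost under 10 of 20 alternatives.

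With MCHP in M1, 0 of these 22 genes passed, where 0.0852% of all genes did. In M2, 4 were lower and 1 was higher, beside 2.18% and 2.92% of all genes. C3AR1 fell to 0.734-fold (log2 -0.45 ± 0.08, adjusted p = 0.0020), VSIG4 to 0.755-fold (-0.41 ± 0.08, adjusted p = 0.0054), CD55, which speeds the decay of C3 convertases, to 0.781-fold (-0.36 ± 0.08, adjusted p = 0.0086), and CLU, clusterin, to 0.836-fold (-0.26 ± 0.06, adjusted p = 0.011). CD59 rose to 1.19-fold (0.24 ± 0.06, adjusted p = 0.022). VSIG4 averaged 83.9 ± 10.9 CPM in M2 MCHP and 111 ± 5.06 CPM in M2 DMSO (SD, n = 3 each), and CD59 83.4 ± 3.68 CPM in M2 MCHP and 70.4 ± 1.21 CPM in M2 DMSO. In the same comparison 3 of 8 tested macrophage markers were also lower, TYROBP (-0.49), FCER1G (-0.47) and CSF1R (-0.32), and none was higher. The 9 macrophage markers summed to 1892 CPM in M2 MCHP and 2097 CPM in M2 DMSO, and their part in the lower receptor levels was not tested. The 5 calls were lost when the M2 libraries were fitted alone, that of CD55 also without M2 MCHP replicate 3 (-0.33, adjusted p = 0.050). That of CD59 was lost under 7 of 20 alternatives, among them without M2 MCHP replicate 1 (0.25) or 2 (0.21) and without M2 DMSO replicate 2 (0.23) or 3 (0.24), at adjusted p from 0.051 to 0.086. No gene of the 22 passed the test of the difference between the responses, where 0.164% of all genes did.

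Among 16 transcription factors linked in the literature to these genes, 12 were higher in M1 than in M2 in DMSO and 1 was lower (21.6% and 20.9% of all genes). Under MCHP 12 were higher and 2 lower (21.9% and 22.7% of all genes). IRF1 (log2 3.88), CIITA (3.76) and STAT2 (2.26) were higher in DMSO, while PPARG, the lipid-sensing nuclear receptor, was lower (-1.85). Their promoter letters were described above, and no link between a factor and a gene was tested. With MCHP, NR1H3, the oxysterol receptor LXR alpha, rose in M1 (0.50, adjusted p = 0.0077) and in M2 (0.85, adjusted p = 7.6e-07), and in M2 STAT2 (-0.30), STAT6 (-0.24) and IRF9 (-0.84) fell. That is 1 higher and 0 lower in M1, beside 0.0721% and 0.0131% of all genes, and 1 higher and 3 lower in M2, beside 2.92% and 2.18%. All 3 lower calls were lost with the M2 libraries alone. STAT2 also lost its call without M2 MCHP replicate 1 (-0.28) or 3 (-0.27), and STAT6 without M2 DMSO replicate 2 (-0.22), M2 MCHP replicate 1 (-0.24) or M2 MCHP replicate 2 (-0.22). IRF9 lost it without M2 DMSO replicate 1 (-0.56), M2 MCHP replicate 1 (-0.77) or M2 MCHP replicate 3 (-0.72). The call of NR1H3 in M1 was lost without any 1 of its 6 libraries except M1 DMSO replicate 1, at values of 0.47 to 0.52 and adjusted p of 0.051 to 0.11, whereas in M2 it held in all 20 alternatives.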

How the data were processed

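RNA was measured in 12 libraries, and the authors deposited raw counts per gene, with no normalization, beside each gene's length. The submitters' processing notes name DESeq2 1.20.0, featureCounts 1.5.0-p3, StringTie 1.3.3b, HISAT2 2.0.5 and fastp, without their roles, and the build hg38. The handling of strand and of reads on shared exons is not given in the sources used here. Of the table's identifiers, 58735 of 58907 matched GENCODE 29, and 26650 genes had no count.

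Counts were fitted in R 4.3.3 with edgeR 4.0.16 (filterByExpr, minimum count 10, TMM scaling, 15252 genes, 1 mean per group over all 12 libraries, 8 residual degrees of freedom) and tested with the two-sided quasi-likelihood test, with Benjamini-Hochberg adjustment over all genes and a threshold of 0.05. Standard errors were derived from the p and the log2 fold change. The test was checked on simulated data in which the groups had equal means except for a set of genes changed in M2 MCHP. These data had no polarization difference and no library that stands apart, so the check does not cover either. Intervals are at 95% and count ratios use exact conditional intervals. TPM were computed from counts and the table's lengths. Alternatives were DESeq2 1.42.0, limma-voom (limma 3.58.1), other scalings, filters and sets of libraries, and a replicate block.

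All 9 genes are named. Of the other lists, genes called in a contrast may be named, and of the neighbours the 3 nearest. Genes, lists and motifs were chosen with earlier results of these data known. Same-numbered libraries did not deviate together (correlations -0.017 to 0.037 between MCHP and DMSO, and -0.048 to -0.011 between M1 and M2), and replicate pairs differed by more than sampling noise. Some results for genes of these lists are not reported here.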

Additional observations from a re-analysis of the deposited data

How the results depend on the processing

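The 6 calls between M1 and M2 held their direction and passed the threshold in all 20 alternatives, with 0 reversed, in DMSO and under MCHP, and the number of genes called stayed at 6 whichever library was left out. C2 and CFB met the count filter only in M1 libraries, so their place among the 6 rested on the group in which they were high. With a replicate block the counts were 6 in DMSO, 6 under MCHP and 0 for each MCHP comparison and for their difference, and it changed no call of these genes. The MCHP count in M1 and the count for the difference were 0 under every alternative run. In M2 the count was 1 without a filter on low counts (C3). Changes that were not called reversed in sign: limma-voom gave 0.49 for C2 with MCHP in M2. Leaving out each library in turn gave -0.66 to 1.18 for C2 and -0.10 to 0.48 for SERPING1 in M2, -0.11 to 0.053 for CFB and -0.069 to 0.040 for SERPING1 in M1. For the difference of responses it gave -0.13 to 0.18 for C1R, -1.66 to 0.18 for C2 and -0.50 to 0.090 for SERPING1.

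Counts over all genes depend on the setting. With MCHP in M1, 13 genes passed, against 76 without a filter, 50 with DESeq2, 295 with only the compared libraries, 5 with the block and 1 with a log2 minimum of 1. In M2, 779 passed, against 183 with only the compared libraries and 50 with the log2 minimum, and for the difference 25, against 170 without a filter, 96 with DESeq2 and 6 with the log2 minimum. Between M1 and M2, 6489 passed in DMSO and 6804 under MCHP, against 1937 and 1999 with the log2 minimum. Scaling by library size alone gave 2395 higher and 4532 lower in DMSO (3296 and 3193 with TMM), 2678 and 4338 under MCHP (3342 and 3462), and 306 and 465 with MCHP in M2 (446 and 333), and moved the median log2 fold change in DMSO to -0.13. The cause was not tested. Depth limits C2, CFB and the C1q genes in M2. Alternatives for the other complement genes and transcription factors were chosen after seeing the data.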
